A study of Mus musculus with 5 samples.

Results

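The genes described here encode the nuclear subunits of the mitochondrial respiratory chain and of ATP synthase, in 3T3-L1 adipocytes that had been exposed to myeloma cells as preadipocytes. They were chosen by symbol, with earlier results of these data known. The rule took names starting with Nduf and a subunit letter (complex I), the Sdh subunits *Sdha* to *Sdhd* (complex II), Uqcr (complex III), Cox followed by 4 to 8 (complex IV) and Atp5 (complex V). The rule found 84 genes among 19505 named genes on the array, each with 1 probe set: 37 of complex I, 4 of complex II, 8 of complex III, 18 of complex IV and 17 of complex V. Subunits encoded by mitochondrial DNA were not analysed here.

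Complexes I to IV pass electrons from NADH and succinate to oxygen. Complexes I, III and IV pump protons across the inner mitochondrial membrane, and complex V uses the proton gradient to make ATP. Several subunits of complex IV, cytochrome c oxidase, come in more than one form: a ubiquitous isoform and one made mainly in particular tissues such as heart and skeletal muscle, brown fat, lung or testis. White fat cells gain mitochondria as they differentiate, and brown fat cells hold many more.

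3T3-L1 is a mouse preadipocyte line that turns into lipid-filled adipocytes in culture, and MM.1S is a human myeloma (plasma cell cancer) line. Confluent preadipocytes were kept for 48 h in RPMI medium either alone (control, n = 2) or sharing that medium with MM.1S cells across a transwell membrane with 0.4 µm pores (MM-3T3-L1s, n = 3). The myeloma cells were then taken away, and both groups went through 7 days of the same differentiation: 4 days with IBMX, dexamethasone and insulin, 2 days with insulin and a last day in growth medium. Total RNA was hybridised to 1 Clariom S mouse array per sample, and values are log2 intensities as normalised by the authors, so a difference of 1 is a doubling. The labels do not say whether replicates were separate cultures, so a p-value here covers no more than the spread between these arrays, whose number limits the precision. The groups model 1 cell line, and in such bulk RNA fewer cells of a type cannot be told apart from less RNA per cell.

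The 5 arrays correlated at 0.985 to 0.993 over all 22206 probe sets. A probe set was taken as above background where its mean exceeded 3.59, a level that 95% of 1450 smell and taste receptor genes stay under, and 61.0% of probe sets did so. Of the respiratory chain genes 83 of 84 did, the exception being the testis isoform *Cox7b2*. The cultures carried adipocyte transcripts in both groups: all 11 measured adipocyte markers were above background, and *Adipoq* (adiponectin) had values of 11.80 and 11.67 in controls and 11.79, 11.86 and 11.79 in MM-3T3-L1s. Of the brown and beige markers, 4 of 11 were above background, and *Ucp1*, the uncoupling protein that defines brown fat, was not.

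Most respiratory chain subunits had nearly the same level in MM-3T3-L1s and controls. The median log2 difference (MM.1S minus control) over the 84 genes was 0.030, against 0.014 over all probe sets and -0.025 over those above background. It was 0.047 after repeated quantile normalisation and 0.023 after median centring, and it ran from 0.0077 without MM.1S replicate 2 and 0.016 without control replicate 2 to 0.048 without control replicate 1. Of the 84 genes, 72 (85.7%) differed by at most 0.2 in either direction, against 62.7% of all probe sets. For 76 of 84 genes (90.5%) the 95% interval of the difference lay within 1.5-fold either way, against 54.4% of all probe sets and 58.1% of those above background. The standard error of the difference had a median of 0.113 for these genes and 0.154 over all probe sets.

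Differences were tested with limma on all probe sets and called at the study's own thresholds, which are p of 0.05 or less before adjustment and a change above 1.5-fold. No subunit was called higher and 1 was called lower, *Cox6a2*, where 0.910% of all probe sets were called higher and 1.44% lower. At the same p and any fold, 0 subunits were higher and 2 lower (*Cox6a2* and *Cox7a1*), where 3.48% and 4.11% of all probe sets were. After Benjamini-Hochberg adjustment of the limma p-values over all probe sets no probe set was below 0.05, although 772 were higher and 912 lower at an unadjusted p of 0.05 or less. After adjustment 2 probe sets passed when each was tested on its own spread, as the methods do, and 9 when limma's prior was robust and followed intensity, none of them a respiratory chain gene.

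Of the 84 genes, 56 lay above 0 and 28 below. In 13 genes (15.5%) all MM.1S arrays were above both control arrays, and in 6 (7.14%) all were below, where 11.9% and 12.2% of all probe sets, and 10.6% and 17.2% of those above background, separated in these ways. Deviations of single arrays from each gene's mean had a median over the 84 genes of -0.0057 and -0.035 in controls and of 0.0087, 0.040 and -0.031 in MM-3T3-L1s. MM.1S replicate 3 thus sat with control replicate 2 and below control replicate 1, and the groups overlapped. The groups also overlapped in the median of each of the 5 complexes taken alone.

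**Figure D1:**
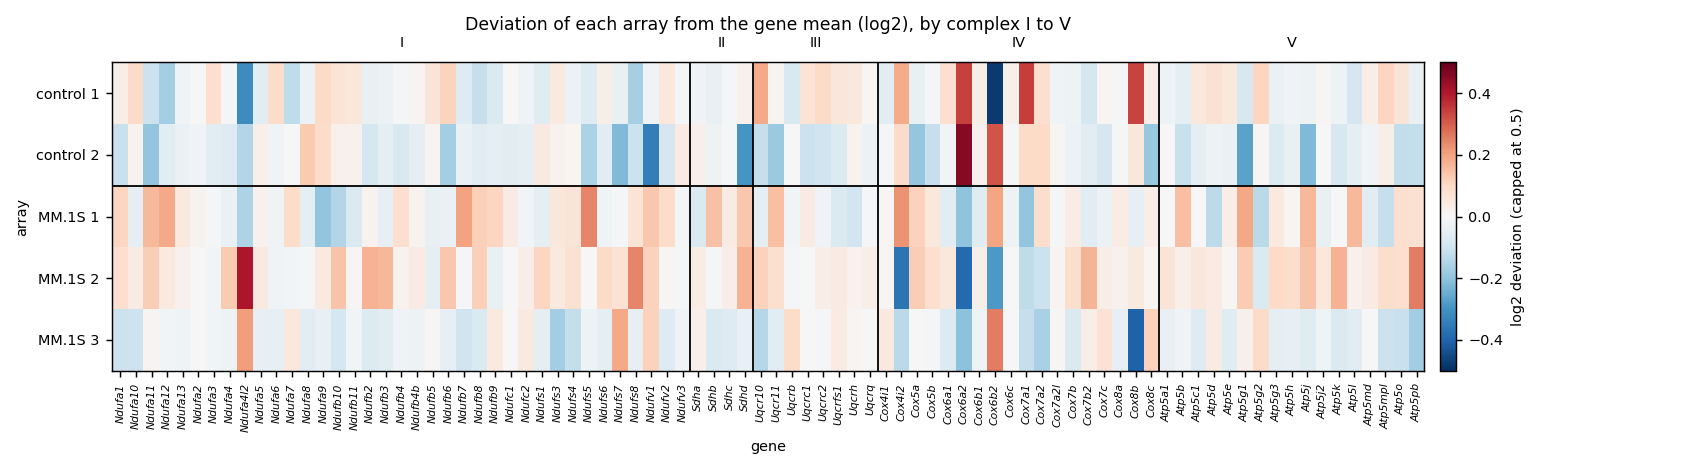
Deviation of each array from the mean of the gene over the 5 arrays (log2, colour, capped at 0.5), with genes in columns ordered by complex I to V and arrays in rows. Rows of 1 group do not share a colour across a complex, and the genes that deviate most in single arrays are *Cox6b2*, *Cox6a2*, *Cox8b*, *Ndufa4l2* and *Cox4i2*.

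Complex I takes electrons from NADH. The 37 genes had a median difference of 0.041, with 27 above 0 and 10 below, and none passed the limma test at an unadjusted p of 0.05 or less. Without MM.1S replicate 2 the median was 0.020. In 9 of the 37 (24.3%) all MM.1S arrays were above both controls, and in 3 (8.11%) all were below. Of all probe sets 11.9% and 12.2% separated in these ways, and of those above background 10.6% and 17.2%. Of the 10 Ndufs and Ndufv genes, which include the parts that hold the flavin and the iron-sulfur clusters, 4 had all MM.1S arrays above both controls. None had all below, and their median difference was 0.026.

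*Ndufv1*, the subunit that binds NADH and its flavin, read 8.89 and 8.56 in controls and 9.04, 9.02 and 9.02 in MM-3T3-L1s. All 3 exposed arrays were higher, and control replicate 2 was the lowest by far. The difference was 0.30 (SE 0.13, 95% interval -0.03 to 0.63, limma adjusted p = 0.664), and without control replicate 2 it was 0.14. *Ndufa11*, an accessory membrane subunit, read 10.19 and 10.10 in controls and 10.46, 10.42 and 10.31 in MM-3T3-L1s. The groups did not overlap, with a difference of 0.25 (SE 0.11, limma adjusted p = 0.664).

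The iron-sulfur subunits *Ndufs7* and *Ndufs8*, which lead electrons towards ubiquinone, had differences of 0.21 and 0.23, and the accessory subunits *Ndufs5* and *Ndufa12* of 0.18 and 0.19, each with no overlap between groups and none past the test. At the other end were *Ndufa9*, an accessory subunit near the ubiquinone site, at -0.16 and *Ndufa10* at -0.10. *Ndufb4* (0.07) and *Ndufb4b* (0.03) are near-identical copies, so their probe sets may read each other's RNA. The core iron-sulfur subunit *Ndufs1* differed by 0.010.

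*Ndufa4l2*, a paralog of *Ndufa4* known to be induced by hypoxia, had the largest difference above 0 of the 84 genes. It was dim, at 4.44 and 4.61 in controls and 4.61, 5.16 and 4.97 in MM-3T3-L1s. MM.1S replicate 1 lay between the controls and the other two were above them. The difference was 0.38 (SE 0.19, 95% interval -0.08 to 0.85, limma adjusted p = 0.677). Its symbol places it and *Ndufa4* with complex I, although *Ndufa4* is now regarded as a subunit of complex IV.

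Complex II, succinate dehydrogenase, links the chain to the citric acid cycle. Its flavoprotein *Sdha*, iron-sulfur protein *Sdhb* and membrane anchor *Sdhc* differed by -0.0074, 0.053 and 0.0099, with overlapping groups. The other anchor, *Sdhd*, read 8.37 and 8.06 in controls and 8.48, 8.53 and 8.31 in MM-3T3-L1s. The difference of 0.23 (SE 0.15, limma adjusted p = 0.698) came with overlap, since MM.1S replicate 3 was below control replicate 1.

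Complex III passes electrons from ubiquinol to cytochrome c. None of its 8 genes under the name rule separated the groups. Of all probe sets 11.9% had all MM.1S arrays above both controls and 12.2% all below. The gene for cytochrome c1 of this complex, *Cyc1*, lies outside the rule and differed by 0.12, with overlapping groups. The core proteins *Uqcrc1* and *Uqcrc2* differed by 0.032 and 0.0056, and the Rieske iron-sulfur protein *Uqcrfs1* by 0.011. The small subunits ran from *Uqcr10* (-0.06) and *Uqcrh* (-0.06) to *Uqcrb* (0.06) and *Uqcr11* (0.14). The median over the complex was 0.014, equal to that over all probe sets, and it turned to -0.053 without control replicate 2 and rose to 0.081 without control replicate 1.

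Complex V makes ATP. Its 17 genes had a median difference of 0.045, with 10 above 0, 7 below and none past the test, and the median was 0.011 without MM.1S replicate 2. In the catalytic F1 head the alpha, beta and gamma subunits *Atp5a1*, *Atp5b* and *Atp5c1* differed by 0.024, 0.13 and -0.0044, and of the 5 head genes the median was -0.0044. All 3 MM.1S arrays were above both controls for *Atp5b* and for *Atp5g1*, 2 of the 17 (11.8%), and all were below for 0. Of all probe sets 11.9% and 12.2% separated in these ways.

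*Atp5g1* is 1 of 3 genes for the same c subunit, which forms the rotating ring in the membrane. It read 10.01 and 9.83 in controls and 10.29, 10.22 and 10.12 in MM-3T3-L1s, with no overlap. Its difference of 0.29 (SE 0.12, 95% interval -0.01 to 0.59, limma adjusted p = 0.662) stood beside -0.09 for *Atp5g2* and 0.085 for *Atp5g3*, both with overlapping groups. The differences between these genes were not tested. In the stalk and membrane part, the coupling factor *Atp5j* had the highest difference, 0.20 with overlap, and the small membrane protein *Atp5mpl* the lowest, -0.11.

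**Figure D2:**
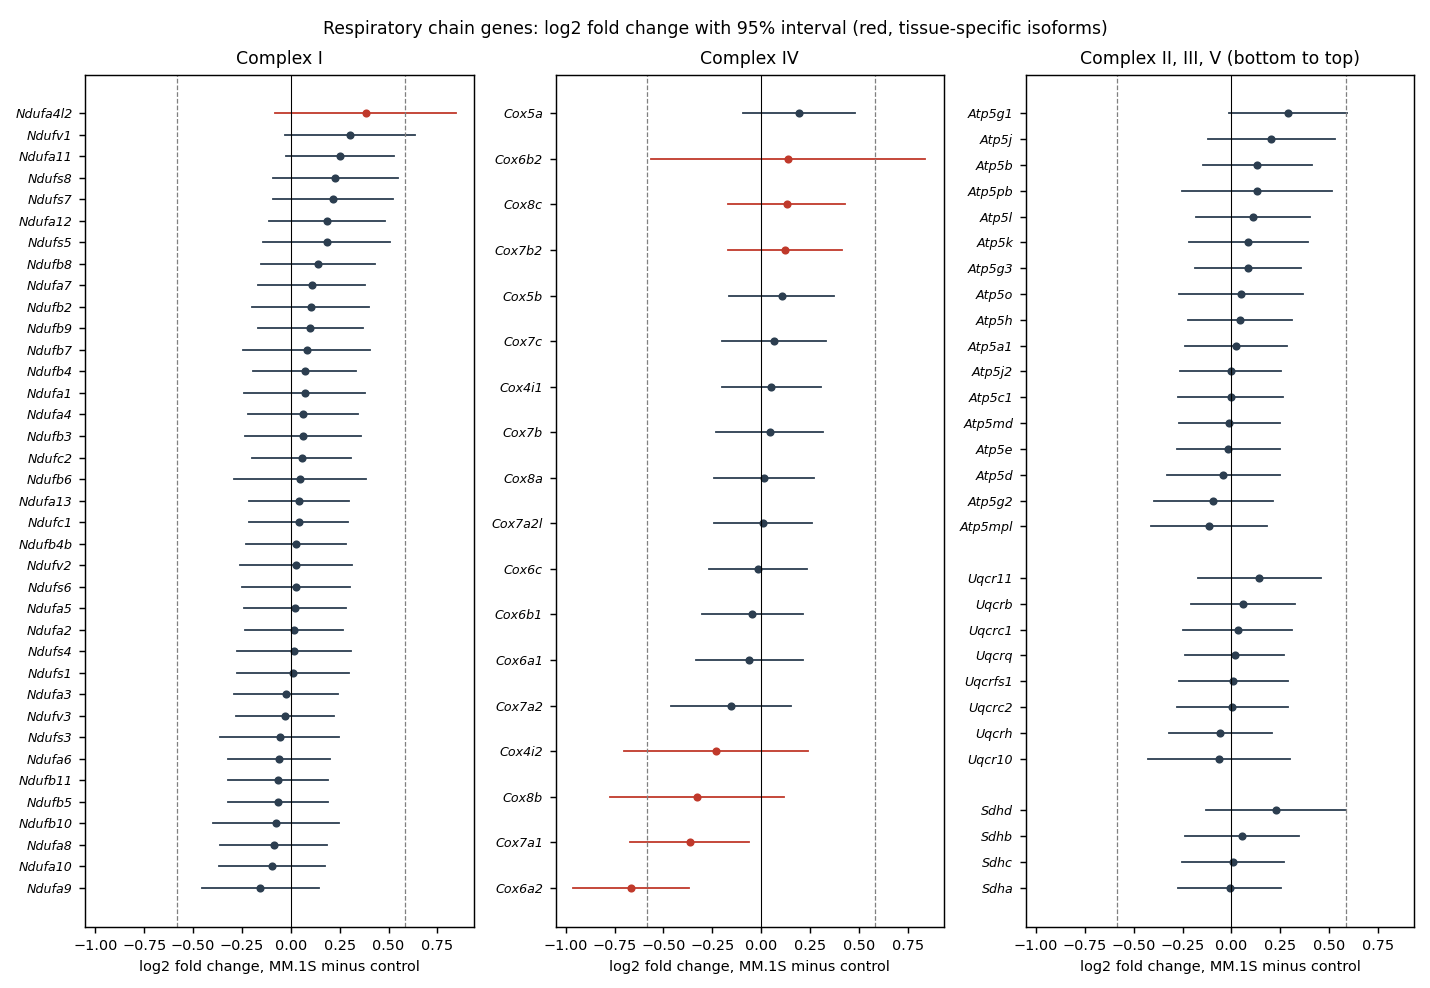
Log2 difference (MM.1S minus control, horizontal axis) of each of the 84 genes as a point, with its 95% limma interval as a line, for complex I (left), complex IV (centre) and complexes II, III and V (right). Dashed lines mark 1.5-fold and tissue-specific isoforms are red, and *Cox6a2* is the only point beyond a dashed line.

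Complex IV passes electrons to oxygen, and it held the subunits that passed the test. Its 18 genes had a median difference of 0.013 and a mean of -0.055, with 10 above 0 and 8 below. No ubiquitous subunit passed the test. *Cox5a*, a matrix-side subunit, was the highest at 0.19 (SE 0.12, limma adjusted p = 0.693), *Cox5b* differed by 0.105, *Cox6c* by -0.015, *Cox7c* by 0.064 and the supercomplex factor *Cox7a2l* by 0.012.

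*Cox6a2*, the heart and skeletal muscle form of subunit 6a, read 7.53 and 7.65 in controls and 6.99, 6.80 and 6.99 in MM-3T3-L1s. Every exposed array was below every control array, and the gap between the groups was larger than the spread within either. The gene fell by 36.9% on the linear scale, a log2 difference of -0.66 (SE 0.12, 95% interval -0.96 to -0.37, limma Benjamini-Hochberg adjusted p = 0.412). It stayed beyond 1.5-fold with p at or below 0.05 when each array was left out in turn, the difference ranging from -0.72 to -0.60. Its ubiquitous partner *Cox6a1* differed by -0.06 (SE 0.11, limma adjusted p = 0.879), with overlapping groups.

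*Cox7a1*, the muscle and brown fat form of subunit 7a, read 9.53 and 9.28 in controls and 8.99, 9.06 and 9.07 in MM-3T3-L1s. All exposed arrays were lower and close together, while the controls lay further apart. The difference was -0.37 (SE 0.12, 95% interval -0.67 to -0.06, limma adjusted p = 0.609), under 1.5-fold. Without control replicate 1 it was -0.24, and it no longer passed the unadjusted threshold there, without MM.1S replicate 1 (-0.34), without MM.1S replicate 2 (-0.38) or with the replicate number as a block (-0.38). Its partner *Cox7a2* differed by -0.15 (SE 0.12, limma adjusted p = 0.734).

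*Cox8b*, the muscle and brown fat form of subunit 8 in mouse, read 7.99 and 7.71 in controls and 7.61, 7.70 and 7.25 in MM-3T3-L1s. All exposed arrays were lower, MM.1S replicate 2 only just below control replicate 2. The difference of -0.33 (SE 0.18, 95% interval -0.78 to 0.12, limma adjusted p = 0.683) did not pass the test, and it was -0.19 without control replicate 1 or without MM.1S replicate 3. The partner *Cox8a* differed by 0.014.

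The other specific forms did not separate the groups. The lung and hypoxia form *Cox4i2* read 4.80 and 4.70 in controls and 4.83, 4.24 and 4.48 in MM-3T3-L1s, a difference of -0.23 (limma adjusted p = 0.736), and its partner *Cox4i1* differed by 0.052. The testis forms *Cox6b2*, *Cox7b2* and *Cox8c* differed by 0.14, 0.12 and 0.13, where the first had a standard error of 0.28 because the controls read 3.44 and 4.23. Their partners *Cox6b1* and *Cox7b* differed by -0.044 and 0.044. Over all 8 specific forms, *Ndufa4l2* included, the median was -0.055 and 2 intervals lay within 1.5-fold, and over the 7 ubiquitous partners the median was 0.014 and all 7 intervals did. Without the 8 specific forms, the other 76 genes had a median of 0.030, and 74 of their intervals lay within 1.5-fold.

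The change of each specific form against its partner was taken within each array, so that the scaling of an array cancels, and compared between groups by an exact two-sided permutation test over the 5 arrays, whose smallest possible p is 0.1. The design can therefore not reach 0.05 here. *Cox6a2* against *Cox6a1* changed by -0.60 (exact p = 0.1), with every exposed array below both controls, and *Cox8b* against *Cox8a* by -0.34 (exact p = 0.2), likewise with no overlap, though by -0.20 without control replicate 1. *Cox7a1* against *Cox7a2* changed by only -0.21 (exact p = 0.4), with overlap. The other pairs changed by -0.28 (*Cox4i2*, exact p = 0.3), 0.18 (*Cox6b2*, exact p = 0.7), 0.079 (*Cox7b2*, exact p = 0.4), 0.12 (*Cox8c*, exact p = 0.6) and 0.32 (*Ndufa4l2* against *Ndufa4*, exact p = 0.3). Adjusted over the 8 pairs, the permutation p ran from 0.533 to 0.700.

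**Figure D3:**
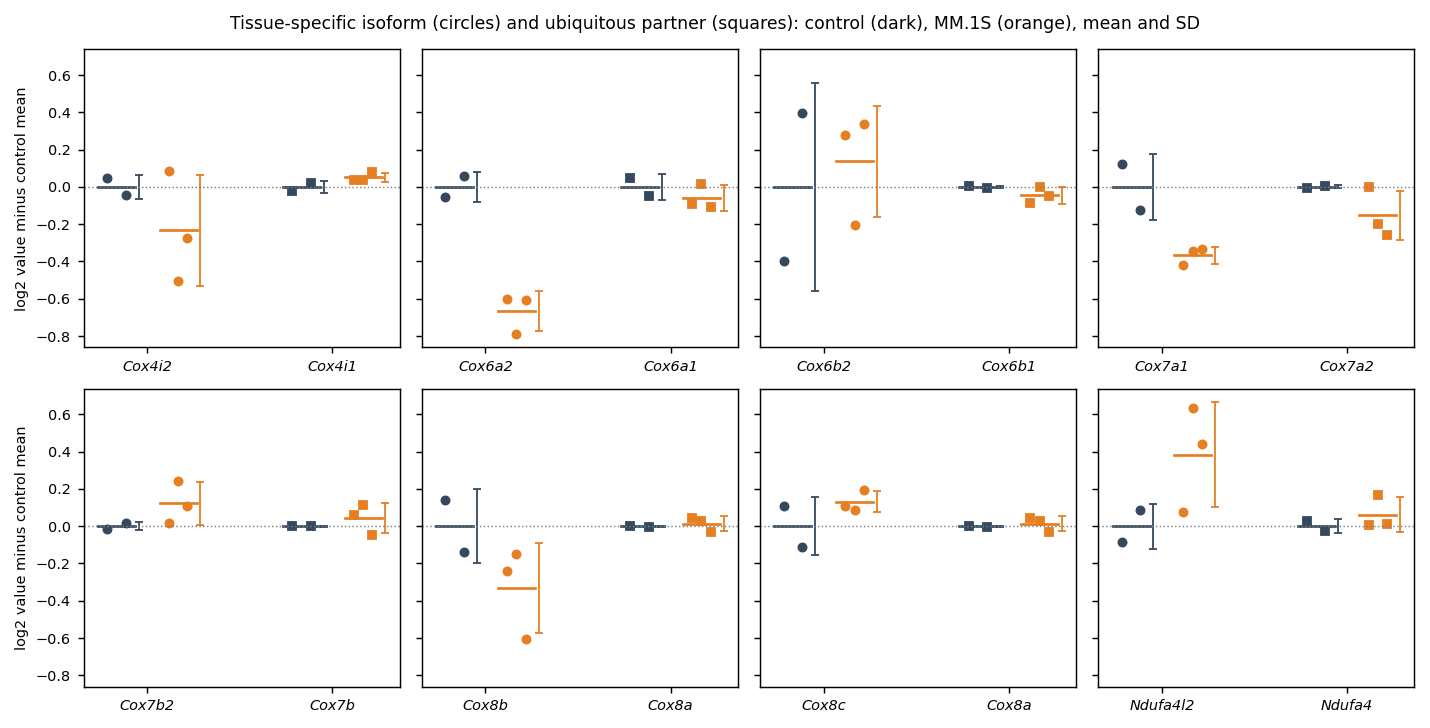
Log2 value of each array minus the control mean of the same gene (vertical axis) for 8 pairs of a tissue-specific isoform (circles) and its ubiquitous partner (squares), control dark and MM.1S orange. Horizontal bars are group means and whiskers 1 SD. *Cox6a2*, *Cox7a1* and *Cox8b* are the forms whose exposed arrays all lie below the controls, 3 of 8 (37.5%). Of all probe sets 12.2% lie so, and of those above background 17.2%.

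These 3 forms belong to muscle and brown fat, so markers of those cells were read beside them. Of 18 skeletal and heart muscle markers, 8 were above background and none was called at 1.5-fold. Of all probe sets 0.910% were called higher and 1.44% lower. The summed level of these markers (log2 of the summed linear values) was 7.64 to 7.65 in controls and 7.68 to 7.73 in MM-3T3-L1s. *Tnni3* (cardiac troponin I) was higher by 0.46 (limma adjusted p = 0.539) and the myosin *Myh7*, below background, by 0.41 (limma adjusted p = 0.594). At an unadjusted limma p of 0.05 or less and any fold these 2 of 18 (11.1%) were higher and 0 lower. Of all probe sets 3.48% and 4.11% were. The 8 markers above background split, 4 above 0 and 4 below, the lowest being the troponin *Tnnc2* and the myosin light chain *Myl1*, both at -0.21. The summed level of the brown and beige markers was 7.57 to 7.81 in controls and 7.86 to 7.99 in MM-3T3-L1s, with 0 of 11 called and *Ucp1* and *Cidea* below background. Of these 11 markers 8 lay above 0 and 3 below. The 4 above background were *Ppargc1a*, the brightest of the 11, at 0.50, *Zic1* at 0.15, *Cpt1b* at 0.05 and *Ebf2* at -0.22. The brown marker with the largest difference, *Dio2*, was below background at 0.59 (limma adjusted p = 0.684). The part of these markers in the isoform results was not tested.

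The summed level of the adipocyte markers was 14.29 to 14.43 in controls and 14.42 to 14.54 in MM-3T3-L1s. *Fabp4* was higher by 0.32 (limma adjusted p = 0.596) and *Retn* (resistin) differed by -0.63 (limma adjusted p = 0.642). That of the preadipocyte and fibroblast markers was 12.46 to 12.61 in controls and 12.26 to 12.32 in MM-3T3-L1s, with *Dlk1* differing by -0.45 (limma adjusted p = 0.510) and *Col3a1* by -0.40 (limma adjusted p = 0.583). In the same list *Pdgfrb* was higher by 0.35 (limma adjusted p = 0.583), and of 8 measured markers 2 lay above 0 and 6 below. At the same unadjusted p and any fold 1 of the 8 was higher and 2 were lower. All MM.1S arrays were below both controls in 5 (62.5%) and above both in 2 (25%). Of all probe sets 12.2% and 11.9% separated in these ways, and of those above background 17.2% and 10.6%. The part of these differences in the isoform results was not tested. Plasma and B cell markers had 2 of 10 above background, *Irf4* (0.39, limma adjusted p = 0.680) and *Sdc1* (0.06), both with overlapping groups. Of the 10, 0 were called, where 0.910% of all probe sets were called higher and 1.44% lower. *Cd79b* (0.33) and *Mzb1* (0.29) had the smallest p and were below background. Testis markers had 2 of 10 above background and 0 called, with *Acrv1* (0.55) and *Pgk2* (0.32) likewise below background.

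Promoter sequence was set beside 2 of the pairs, *Cox7a1* with *Cox7a2* and *Cox8b* with *Cox8a*, since both specific forms were below the controls in every exposed array. *Cox6a2* was below them in every exposed array as well, but it had no promoter entry, so its pair is not printed. Its partner *Cox6a1* held matches to motifs described below, GCATGCGC (NRF1) and CCGGAAG (ETS). Each sequence below is the 250 bases before the first listed RefSeq start of the gene on GRCm38.p6, read in the direction of the gene. *Cox7a1* is from chr7:30183921-30184170 on the plus strand. On the minus strand *Cox7a2* is from chr9:79759854-79760103, *Cox8b* from chr7:140900447-140900696 and *Cox8a* from chr19:7217617-7217866. The *Cox7a2* window lies inside the gene's RefSeq span (79755241-79771422), so it precedes an internal start and not the outermost one. Capitals mark the muscle E-box CAGCTG in *Cox8b*, the only match among the 4 to the motifs searched, so that *Cox7a1*, *Cox7a2* and *Cox8a* are in lower case throughout.
Cox7a1: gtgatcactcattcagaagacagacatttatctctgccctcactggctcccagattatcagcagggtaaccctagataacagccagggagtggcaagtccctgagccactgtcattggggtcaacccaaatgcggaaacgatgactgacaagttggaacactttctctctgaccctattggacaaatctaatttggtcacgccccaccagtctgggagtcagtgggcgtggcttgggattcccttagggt
Cox7a2: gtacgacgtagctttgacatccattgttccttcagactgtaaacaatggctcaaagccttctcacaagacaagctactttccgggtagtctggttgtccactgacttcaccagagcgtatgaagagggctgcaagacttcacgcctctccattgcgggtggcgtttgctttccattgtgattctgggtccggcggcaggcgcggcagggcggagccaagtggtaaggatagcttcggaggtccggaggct
Cox8b: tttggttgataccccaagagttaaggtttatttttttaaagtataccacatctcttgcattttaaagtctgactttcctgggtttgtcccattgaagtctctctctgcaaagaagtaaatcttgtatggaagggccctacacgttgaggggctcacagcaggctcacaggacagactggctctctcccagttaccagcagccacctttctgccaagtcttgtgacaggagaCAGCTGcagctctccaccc
Cox8a: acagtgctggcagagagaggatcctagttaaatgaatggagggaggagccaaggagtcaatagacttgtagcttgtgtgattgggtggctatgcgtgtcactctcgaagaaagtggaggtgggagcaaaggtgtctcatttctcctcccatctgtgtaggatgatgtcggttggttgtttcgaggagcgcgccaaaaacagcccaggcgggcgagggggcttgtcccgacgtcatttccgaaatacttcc

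The search covered the 69 of 84 genes with an entry among 27025 promoters of the same length, read on both strands, and matches to different motifs shared no letters in the 69. The NRF1 core GCATGCGC, named for a regulator of nuclear mitochondrial genes, was in 8 of the 69 (11.6%), *Atp5g2*, *Atp5k*, *Atp5l*, *Cox6a1*, *Ndufa11*, *Ndufa6*, *Ndufa8* and *Sdhb*, and in 2.32% of all promoters. The stricter form, with the core on both strands and overlapping, was counted first and was in 4 of the 69 (5.80%) and in 0.781% of all. The ETS core CCGGAAG, which GABP binds, was in 11 (15.9%) and in 7.05% of all. The E-box CAGCTG was in 6 (8.70%, against 12.8%), the ERR motif TCAAGGTCA in 1 (1.45%, against 0.366%), the TATA box TATAAA in 7 (10.1%, against 12.97%), and the YY1 motif AAGATGGC and the MEF2 consensus in 0 (against 1.59% and 3.01%). Genes with the NRF1 core lay on both sides of 0, from *Atp5g2* at -0.09 to *Ndufa11* at 0.25.

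Genes that build or serve the chain, but lie outside the name rule, were read in the same fit. Ubiquinone is the lipid that carries electrons to complex III, and of 12 measured genes for its synthesis or handling 2 lay above 0 and 10 below, where 52.8% of all probe sets, and 6098 of the 13551 above background, lay above 0. Their median was -0.13, against 0.014 over all probe sets. *Coq8a*, an atypical kinase of the pathway, read 5.35 and 5.38 in controls and 4.57, 4.05 and 4.79 in MM-3T3-L1s. All exposed arrays were lower, and the difference was -0.89 (SE 0.23, limma adjusted p = 0.539), the only call at 1.5-fold in that group. The call was lost without either control, where the difference was -0.91 without control replicate 1 and -0.88 without control replicate 2. *Coq4*, a scaffold of the same pathway, differed by -0.43 (limma adjusted p = 0.651), with 2 of 12 lower at any fold, where 4.11% of all probe sets were.

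Of all probe sets 3.48% were higher and 4.11% lower at an unadjusted p of 0.05 or less and any fold. Among assembly factors, 0 of 18 for complex I, 0 of 4 for complex II and 0 of 6 for complex III passed at any fold. Those with the smallest p were *Ndufaf1* (0.32) and *Timmdc1* (0.25) for complex I, *Sdhaf1* (0.26) and *Sdhaf3* (-0.24) for complex II and *Uqcc3* (-0.17) and *Lyrm7* (0.20) for complex III. For complex IV 1 of 21 passed, *Taco1*, which helps translate the mitochondrial subunit COX1, at 0.37 (limma adjusted p = 0.649), followed by *Cox10* at 0.21. For complex V 1 of 4 passed, *Atpaf2*, which chaperones the alpha subunit in yeast, at -0.38 (limma adjusted p = 0.585) with a mean below background, followed by *Tmem70* at -0.14. Among the 11 measured other parts of the chain none passed: cytochrome c (*Cycs*) differed by 0.27 and the acyl carrier protein *Ndufab1* by 0.24.

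Regulators of mitochondrial genes gave 0 higher and 2 lower of 23 at any fold, where 3.48% and 4.11% of all probe sets were. The 2 were *Yy1* at -0.31 (limma adjusted p = 0.651) and *Perm1*, below background, at -0.35 (limma adjusted p = 0.651). In 7 of the 23 (30.4%) all MM.1S arrays were below both controls, and in 0 all were above. Of all probe sets 12.2% and 11.9% separated in these ways, and of those above background 17.2% and 10.6%. *Nrf1* had the lowest difference, -0.55 (SE 0.31, limma adjusted p = 0.687). It read 5.96 and 6.23 in controls and 5.88, 5.82 and 4.93 in MM-3T3-L1s. *Ppargc1a*, the coactivator that drives mitochondrial biogenesis, read 6.30 and 5.91 in controls and 6.97, 6.73 and 6.12 in MM-3T3-L1s. MM.1S replicate 3 fell between the controls, and the difference was 0.50 (SE 0.28, limma adjusted p = 0.683), and it ran from 0.31 without control replicate 2 and 0.32 without MM.1S replicate 1 to 0.74 without MM.1S replicate 3.

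**Figure D4:**
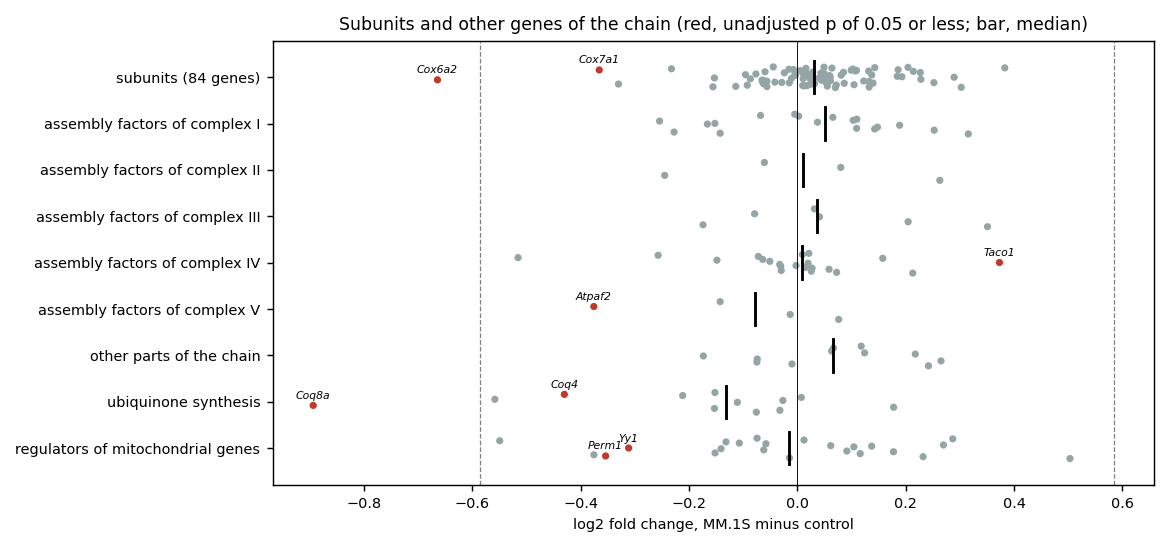
Log2 difference (MM.1S minus control, horizontal axis) of each gene as a point, for the 84 subunits and for assembly factors, other parts of the chain, ubiquinone synthesis and regulators, with the median as a bar and 1.5-fold as dashed lines. Points with an unadjusted limma p of 0.05 or less are red and named, and *Cox6a2* and *Coq8a* are the named points beyond a dashed line.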

How the data were processed

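RNA of 5 samples was measured on Clariom S mouse arrays. The authors imported the scanner files into Partek, normalised them with RMA (robust multi-array average) and deposited log2 intensities per probe set. Whether other arrays of the study entered that normalisation is not given in the sources used here. Probe sets were named from the platform annotation (19572 with 1 symbol, 0 with several, 2634 unnamed), taking per gene the one with the highest mean.

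The limma package (3.58.1, R 4.3.3) fitted the 2 control and 3 MM.1S arrays over all 22206 probe sets, with no covariates, Benjamini-Hochberg adjustment, 3 residual and 2.79 prior degrees of freedom, after the script was tested on simulated data. Calls used an unadjusted p of 0.05 or less with a change above 1.5-fold, as in the study's methods, which use an ANOVA. No count or depth exists for arrays. The members and gene lists were chosen with earlier results of these data known. Subunits were named if they passed p of 0.05 or less, were among the 2 highest or 2 lowest of a complex, or belonged to an isoform pair, as were the genes with the 2 smallest p of each other list. The further genes named (*Ndufa11*, *Ndufs1*, *Ndufs5*, *Ndufs7*, *Ndufs8*, *Ndufa12*, *Ndufb4*, *Ndufb4b*, further subunits of complexes III, IV and V, and some marker genes, such as *Pdgfrb*, *Tnnc2* and *Myl1*) were added after their values were seen. So was the regulator *Nrf1*. Alternatives were the methods' ANOVA, another prior, quantile normalisation, median centring, no dim probe sets, array weights, a replicate block, the mean of a gene's probe sets, a 2-fold threshold and leaving out each array.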

Additional observations from a re-analysis of the deposited data

How the results depend on the processing

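Of 76 results, 61 kept their direction and their side of the threshold, or stayed within the limits set for medians and counts, under every alternative, and *Cox6a2* was among them (-0.60 to -0.72 without each array in turn). It is under 2-fold, so that at a fold threshold of 2 the count of lower subunits was 0 in place of 1. The count of subunits higher at any fold was 0 in the fit reported, 1 by the methods' ANOVA (*Ndufa11*), 5 with a robust prior that follows intensity (*Atp5g1*, *Cox5a*, *Ndufa11*, *Ndufa12* and *Ndufv1*), 1 without dim probe sets (*Atp5g1*), 2 with array weights (*Atp5g1* and *Ndufa11*) and 0 to 2 with each array left out. Under that prior 3.45% of all probe sets were higher at that p. The count lower at any fold was 1 to 2 with each array left out. The replicate number used as a block gave 1 (*Cox6a2*). Under the methods' ANOVA 104 probe sets were called higher and 180 lower in all, against 202 and 320, and 352 were higher without control replicate 1.

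The median of complex III ran from -0.053 to 0.081 with each array left out, that of complex IV from -0.00036 to 0.023, and the difference between *Cox6b2* and *Cox6b1* from -0.22 to 0.58. Small differences turned sign. Under repeated quantile normalisation *Cox8a* was at -0.012 and *Sdha* at 0.064. With each array left out, *Cox6b2* ran from -0.26 to 0.53, *Cox8a* from -0.0012 to 0.036, *Sdha* from -0.029 to 0.027, *Sdhb* from -0.0092 to 0.10, *Sdhc* from -0.0093 to 0.044 and *Uqcr10* from -0.21 to 0.090. The causes were not tested. *Coq8a* lost its call by the methods' ANOVA and without either control. *Retn* lost its call in 7 alternatives, and *Ppargc1a* gained one with array weights (0.62), with the block (0.74) and without MM.1S replicate 3 (0.74).

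Groups share the replicate numbers 1 and 2, which the labels do not tie to a batch. Deviations of same-numbered arrays correlated at -0.027 and 0.060. With 2 controls, whose deviations mirror each other, these values cannot show or exclude a pairing. The block is therefore given only as an alternative. It changed no other call among the subunits. *Cox7b2* and other dim genes gave no value without dim probe sets. With 2 control and 3 exposed arrays the standard error of a subunit's difference had a median of 0.113, and it was 0.28 for the dim *Cox6b2*.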
